A study of Mus musculus with 3 samples.

Results

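The regions described here were open, by peak calling, only in mouse embryonic stem cells that expressed Halo-Sox2, and lay inside protein-coding genes. Peaks of the 3 deposited lists that shared at least 1 bp were merged into union regions on the 19 autosomes and X. A region was kept if it held a peak of the Halo-Sox2 list and none of the other 2, and if its midpoint lay between the start and the end of a protein-coding gene of the mouse annotation GRCm38. This rule selected 16430 of 130604 union regions and 16430 of the 68097 union regions inside genes. The share of Halo-Sox2 only regions was 24.1% inside genes and 24.3% over all union regions, so regions inside genes were called at nearly the background rate. Halo-Sox2a only regions made up 12.2% of the regions inside genes and control only regions 8.29%. With lists of equal size Halo-Sox2a only made up 10.1% and the control only 12.3%, against 21.2% for Halo-Sox2 only. Presence in 1 list and absence from 2 chose the regions. Their number and their scores are therefore descriptions and not findings.

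Chromatin accessibility had been measured by ATAC-seq, in which the transposase Tn5 inserts sequencing adapters into open DNA. All 3 lines were derived from the mouse embryonic stem cell line CGR8 and were grown with leukemia inhibitory factor and inhibitors of GSK3 and MEK. Line SES4.1 carried doxycycline-inducible Halo-Sox2 and received 300 ng/mL doxycycline for 20 h. SES5.1 carried inducible Halo-Sox2a, whose difference from Sox2 the labels leave unstated, and received 70 ng/mL over the same time. Both lines were stained with 50 nM of a Halo ligand and sorted within the same fluorescence gate. SES11, the control, had no inducible transgene, and its labels give no doxycycline dose, stain or sort. Each group had 1 library, so differences between libraries could not be set against a replicate error, no p-value was computed, and the protein expressed cannot be told apart from the line, the dose and the library.

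Sox2 is a high-mobility-group transcription factor that binds a short AT-rich core and bends the DNA. It can bind sites that nucleosomes cover, which is why it is called a pioneer factor. In embryonic stem cells it works with Oct4 at enhancers of pluripotency genes, and in neural progenitors it acts with other partners at neural genes. Sites that such factors open often lie in introns, and the annotation used here gave gene ends but no exons, so exonic and intronic regions could not be separated.

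Depth is unknown for these libraries. The Halo-Sox2 list was the largest, with 88898 peaks, against 83995 for Halo-Sox2a and 72638 for the control, and a longer list leaves more regions without a counterpart. The highest peak over the Sox2 gene stood at score percentile 81.7 with Halo-Sox2, 100.0 with Halo-Sox2a and 64.5 without a transgene. Reads from the inducible transgenes may map to this gene too, and their part in these ranks was not tested. Percentiles were taken within a list. The scores are the authors' own and have no stated scale.

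Sequence was at hand for windows around RefSeq transcription start sites (build GRCm38.p6, 250 bases before to 50 after the start), and 108 Halo-Sox2 only regions covered at least 150 bases of such a window. For 67 of them the window belonged to the gene that contained the region. The 3 highest-scoring of these 67 are shown first, as the 250 bases before the start, because their peaks rank highest in the list. They lay at Arhgef7, which encodes a guanine nucleotide exchange factor (score 984, percentile 98.3), at the interferon-inducible gene Ifi203 (588, percentile 91.0) and at Klf12, a Krüppel-like transcription factor gene (566, percentile 90.2). Letters are lower case, 5′ to 3′ on the strand of the gene. Capitals mark the SOX cores ACAATG and ACAAAG and the octamer ATGCAAAT on either strand.
Arhgef7, chr8:11779034-11779283 (+ strand): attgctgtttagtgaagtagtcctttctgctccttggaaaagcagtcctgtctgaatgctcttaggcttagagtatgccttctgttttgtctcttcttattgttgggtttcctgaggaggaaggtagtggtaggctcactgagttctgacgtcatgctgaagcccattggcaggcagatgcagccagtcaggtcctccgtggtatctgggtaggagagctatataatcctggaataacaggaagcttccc
Ifi203, chr1:173942673-173942922 (- strand): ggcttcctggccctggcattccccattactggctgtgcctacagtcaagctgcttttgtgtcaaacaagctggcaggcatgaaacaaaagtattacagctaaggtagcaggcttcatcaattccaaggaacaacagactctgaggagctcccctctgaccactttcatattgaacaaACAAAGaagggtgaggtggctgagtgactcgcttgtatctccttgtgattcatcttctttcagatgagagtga
Klf12, chr14:100149797-100150046 (- strand): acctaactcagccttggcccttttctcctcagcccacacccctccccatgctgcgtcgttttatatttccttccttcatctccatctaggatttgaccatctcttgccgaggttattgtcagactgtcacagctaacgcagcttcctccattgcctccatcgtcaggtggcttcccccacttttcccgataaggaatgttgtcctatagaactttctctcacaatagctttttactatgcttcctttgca

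Of these windows, Ifi203 held 1 SOX core, ACAAAG, whose first base lay 73 bases before the start. The other two held none of the 3 motifs in the bases shown.

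The next 5 were chosen after the sequences had been searched, because they show how ACAATG sat within covered windows. They are the 5 highest-scoring regions whose 250 bases hold ACAATG, at Tmem267 (a transmembrane protein gene, score 549), Pou2f1 (the gene of the octamer-binding factor Oct-1, 407), Lyrm1 (301), Dcun1d4 (277) and Ahi1 (a gene of the primary cilium, 255). On the lower strand ACAATG reads CATTGT, and both forms are in capitals.
Tmem267, chr13:119487836-119488085 (+ strand): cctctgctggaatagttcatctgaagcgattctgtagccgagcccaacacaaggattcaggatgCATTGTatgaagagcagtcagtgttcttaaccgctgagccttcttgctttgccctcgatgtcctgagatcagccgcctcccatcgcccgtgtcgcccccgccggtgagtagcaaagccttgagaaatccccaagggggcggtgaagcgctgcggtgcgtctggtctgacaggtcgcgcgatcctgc
Pou2f1, chr1:165953072-165953321 (- strand): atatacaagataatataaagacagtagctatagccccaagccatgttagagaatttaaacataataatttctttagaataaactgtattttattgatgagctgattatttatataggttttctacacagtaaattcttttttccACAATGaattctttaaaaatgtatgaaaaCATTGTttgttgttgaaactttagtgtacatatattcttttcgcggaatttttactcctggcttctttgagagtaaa
Lyrm1, chr7:119899861-119900110 (+ strand): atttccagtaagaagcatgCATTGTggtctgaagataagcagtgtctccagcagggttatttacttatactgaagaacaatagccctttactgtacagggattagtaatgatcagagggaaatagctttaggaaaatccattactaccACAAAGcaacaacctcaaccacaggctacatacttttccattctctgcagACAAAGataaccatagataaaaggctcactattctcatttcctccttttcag
Dcun1d4, chr5:73484423-73484672 (+ strand): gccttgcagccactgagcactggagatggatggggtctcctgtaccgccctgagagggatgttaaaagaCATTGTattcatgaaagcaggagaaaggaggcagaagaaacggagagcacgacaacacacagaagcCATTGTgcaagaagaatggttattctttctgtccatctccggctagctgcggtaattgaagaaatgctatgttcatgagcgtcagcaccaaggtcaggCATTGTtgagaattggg
Ahi1, chr10:21040570-21040819 (+ strand): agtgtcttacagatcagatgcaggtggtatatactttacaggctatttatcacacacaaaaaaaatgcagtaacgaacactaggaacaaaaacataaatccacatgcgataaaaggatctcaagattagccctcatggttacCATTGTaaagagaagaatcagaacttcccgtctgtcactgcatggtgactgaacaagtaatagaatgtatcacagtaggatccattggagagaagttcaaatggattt

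All of these cores lay within the called region, but these 5 regions covered 295 to 300 bases of their windows. The shares below count cores anywhere in a window, of which a region covered at least 150 bases. Dcun1d4 held 3 copies of ACAATG on the lower strand, starting 181, 115 and 17 bases before the start. Pou2f1 held 1 copy on each strand, 106 and 77 bases before it. Lyrm1 held ACAATG at 231 bases and ACAAAG at 102 and 52 bases before it.

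SOX cores were frequent in start windows that Halo-Sox2 only regions covered. Of 108 windows, taken as 1 per region, 55 held ACAATG or ACAAAG on either strand (50.9%, 95% Wilson interval 41.6 to 60.2%). Among all 32619 windows of the same length the share was 28.3% (27.8 to 28.8%). Windows covered by regions of all 3 lists inside genes held a core in 18.3% of 8109 cases. The share was 25.7% (16.9 to 37.0%) of 70 windows for Halo-Sox2a only and 28.4% (19.4 to 39.5%) of 74 for the control only. Regions present with both proteins and absent from the control gave 42.7% (34.1 to 51.8%) of 117 windows, an interval that overlaps that of Halo-Sox2 only.

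ACAATG alone was found in 31 of the 108 windows (28.7%, 21.0 to 37.9%), against 12.2% of all windows and 16.2% (10.7 to 24.0%) for both proteins. ACAAAG was found in 40 (37.0%, 28.5 to 46.4%), against 18.8% of all windows and 29.9% (22.4 to 38.7%) for both proteins. Of the 23 windows covered in full, 4 held ACAAAG (17.4%, 6.98 to 37.1%) and 8 ACAATG (34.8%, 18.8 to 55.1%). The same letters in reversed order, GTAACA or GAAACA, gave 22.2% (15.4 to 30.9%) for Halo-Sox2 only and 24.0% of all windows, so the interval for the reversed letters included the value of all windows. The octamer was found in 0.926% of the covered windows and 1.75% of all windows. The SOX-OCT composite motif, searched with either core, and the ESRRB motif TCAAGGTCA were in none of the 108. They were rare in all windows too, in 3 windows at most for the composite and in 0.426% for ESRRB.

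GC content moved with these shares. Covered windows had a median GC of 51.0%, against 53.0% for all windows and 62.3% for regions of all 3 lists. Among windows of up to 48.3% GC, a SOX core was in 26 of 39 covered windows (66.7%, 51.0 to 79.4%) and in 41.9% of all windows. From there to 58.3% GC it was in 23 of 44 (52.3%, 37.9 to 66.2%) and in 29.0% of all windows. Above that it was in 6 of 25 (24.0%, 11.5 to 43.4%), an interval that included the 13.7% of all windows. In that class both proteins gave 37.5% (24.2 to 53.0%) of 40. Sequence further inside the genes was not analysed here, and a match to letters does not show that Sox2 was bound.

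**Figure D1:**
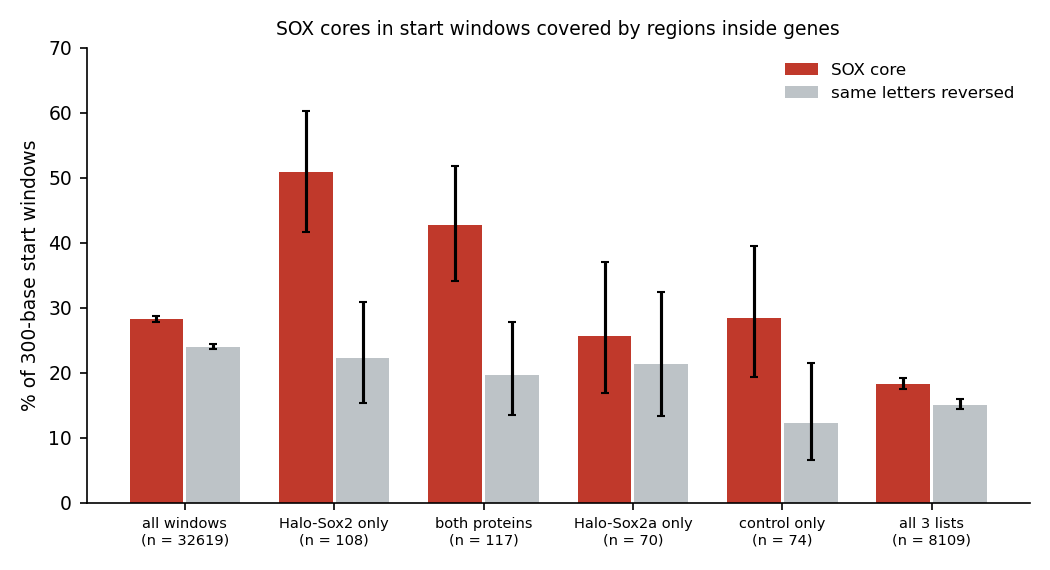
Share of 300-base start windows (y axis, %) holding a SOX core (red) or the same letters reversed (grey), for all windows and for windows covered by at least 150 bases by regions inside genes of 5 classes; bars are shares, whiskers are Wilson 95% intervals covering counting error only. The Halo-Sox2 only bar stands at 50.9%, against 28.3% for all windows, and the reversed letters at 22.2% against 24.0%.

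By score, most of the regions stood in the lower part of the Halo-Sox2 list. Their scores ran from 13 to 1598 with a median of 106 (quartiles 55 and 205), which corresponds to a median percentile of 37.4 (quartiles 17.4 and 61.1). Regions inside genes held by both proteins without the control had a median percentile of 50.8 in the same list, and those of all 3 lists 63.7. In the lowest decile of score 54.4% of the Halo-Sox2 regions inside genes had no counterpart, and in the highest decile 12.6%, or 613 of 4885. Widths ranged from 182 to 1984 bp, with a median of 376.5 bp, against 294 bp for Halo-Sox2a only and 278 bp for the control only. Regions of all 3 lists had a median of 890 bp, but they merge peaks of several lists, which widens them. Each Halo-Sox2 only region inside genes held a single Halo-Sox2 peak. Merging joined only overlapping peaks, so this says only that the Halo-Sox2 peaks there did not overlap each other.

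**Figure D2:**
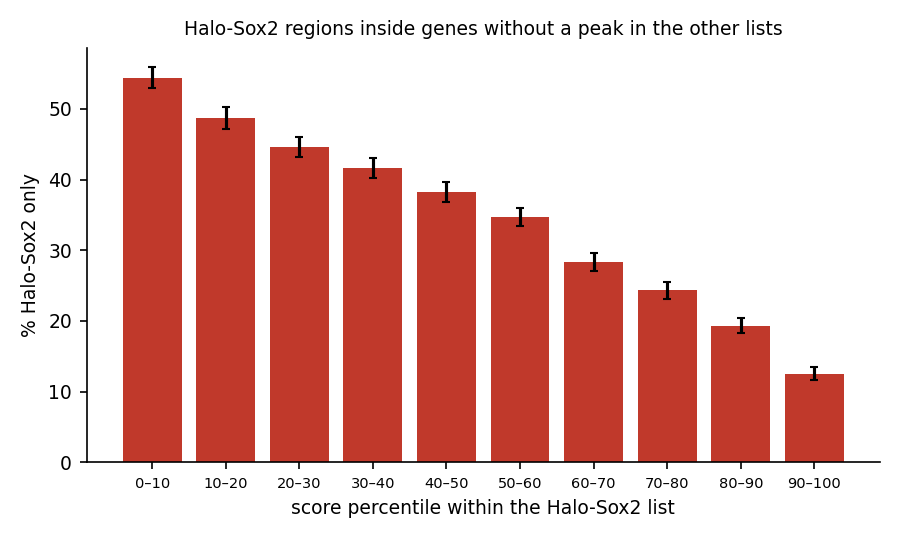
Share of Halo-Sox2 regions inside genes that had no peak in the other lists (y axis, %), by decile of the score within the Halo-Sox2 list (x axis); whiskers are Wilson 95% intervals. The share fell with every decile from 54.4% to 12.6%.

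Few of the regions were close to the limits of the rule in distance or overlap. By score, 14.8% stood in the lowest decile of the Halo-Sox2 list. Signal under the peak threshold in the other libraries is not held in the peak lists and was not examined. Of the 16430, 745 (4.53%) had a peak of another list less than 500 bp away and 15 less than 10 bp away, while the median gap to the nearest such peak was 6.76 kb. Just outside the rule, 17 of the 7661 regions inside genes held by Halo-Sox2 and 1 other list owed their class to an overlap of 10 bp or less. At the gene ends, 35 midpoints lay within 50 bp inside an end, and 24 Halo-Sox2 only midpoints lay within 50 bp outside one.

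Among the highest-scoring regions were those inside Unc5d, Wwox, Dync1li2, Vat1l, Gpc6, Itpr2 and Arhgef18. The first, chr8:29049237-29050151 inside the netrin receptor gene Unc5d, had a score of 1598 and ranked 86 in its list, and the nearest control peak was 13.2 kb away. Inside Wwox, a tumour suppressor gene at a fragile site, the region chr8:114899018-114899904 had a score of 1459. The region in Dync1li2, a dynein subunit gene, was the widest of these at 1180 bp (chr8:104427409-104428588, score 1422). Vat1l held chr8:114266527-114267527 (score 1333), which was 38.3 kb from the nearest Halo-Sox2a peak. The smallest gap from any of these 7 to a peak of another list was 4.88 kb, at Dync1li2.

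Of these 7 regions, 5 lay on chromosome 8. That chromosome held 6.18% of all the Halo-Sox2 only regions inside genes, yet 11 of the 46 above percentile 98 (23.9%, 13.9 to 37.9%). It stood out in every library: 17.4% of the Halo-Sox2, 15.2% of the Halo-Sox2a and 16.2% of the control regions above percentile 98 were on chromosome 8, against 6.58, 6.51 and 7.05% of all regions of those lists. The part of this in the ranking was not tested. Off chromosome 8 the highest-scoring regions were in Gpc6, a glypican gene (chr14:117514478-117515122, score 1284), in Itpr2, which encodes a calcium-release channel (chr6:146473837-146474699, 1245), in the GTPase regulator gene Arhgap35 (1181), in Serpinb2 (1178), in the receptor phosphatase gene Ptprt (1168) and in Serpine2 (1143). Both Serpin genes encode inhibitors of plasminogen activators or related proteases. By share of the regions inside genes rather than by score, chromosome 8 was not high, at 22.7%. The share ran from 20.3% on chromosome 11 to 29.0% on X (26.9 to 31.2%).

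Inside genes, the regions lay far from the ends. The host gene is the shortest gene that contains a region's midpoint. Of the 16430 midpoints, 527 (3.21%, 2.95 to 3.49%) were at most 1 kb from either of its ends. The share of a class at most 1 kb from an end was 4.48% (4.06 to 4.95%) for Halo-Sox2a only, 6.31% (5.70 to 6.97%) for the control only, 5.26% (4.74 to 5.83%) for both proteins and 37.2% for regions of all 3 lists. Among union regions further than 1 kb from the ends, 27.9% were Halo-Sox2 only. For the 12963 regions in genes with a start in the RefSeq windows, the median distance to the nearest start of the gene was 40.9 kb, against 27.8 kb for Halo-Sox2a only, 30.8 kb for the control only and 4.78 kb for all 3 lists. Away from the ends there was little preference along the gene: from the 5′ to the 3′ end, the 5 equal parts of the gene held 19.1, 20.0, 20.3, 21.2 and 19.4% of the regions over 1 kb from an end. The regions of all 3 lists leaned to the 5′ side, with 23.2% in the first of these parts.

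The host genes were long, though a longer gene has more room for regions. Their median length, counted once per region, was 133.3 kb (130.5 to 136.0 kb, 95% interval of the median), against 88.6 kb for Halo-Sox2a only, 103.3 kb for the control only, 101.1 kb for both proteins and 57.9 kb for all 3 lists. For regions over 1 kb from gene ends it was 138.5 kb, against 93.6, 112.6, 107.8 and 93.4 kb for the same classes. Counted once per gene, the median was 60.0 kb for the 6750 host genes, 26.7 kb for genes that hosted any union region and 17.3 kb for all 21631 protein-coding genes.

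Per megabase of gene, the density of Halo-Sox2 only regions varied little with gene length. It was 14.3 per Mb in genes up to 20 kb, 17.9 per Mb in genes of 100 to 200 kb and 12.9 per Mb in the 227 genes over 500 kb. Over the same range, regions of all 3 lists went from 64.3 to 8.36 per Mb and Halo-Sox2a only regions from 10.2 to 3.33 per Mb. The share of Halo-Sox2 only among all regions therefore rose with length, from 12.6% to 36.1% (35.0 to 37.3%). That of the control only also rose, from 7.11% to 11.3% (10.6 to 12.1%). The share of Halo-Sox2a only was 8.94% in the shortest genes, 13.8% in genes of 20 to 100 kb and 9.33% in the longest.

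**Figure D3:**
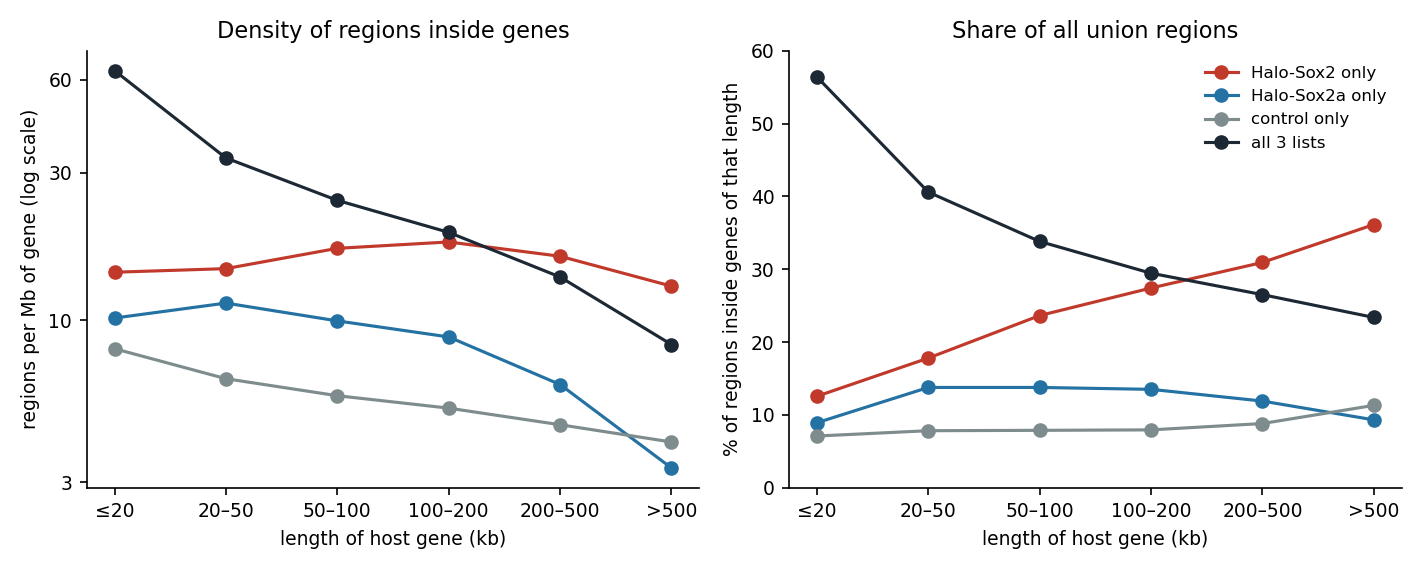
Left, regions per Mb of gene (y axis, log scale) and right, share of all union regions (y axis, %) by length of the host gene in kb (x axis) for regions of Halo-Sox2 only, Halo-Sox2a only, the control only and all 3 lists. The Halo-Sox2 only density stays between 12.9 and 17.9 per Mb while the density of regions in all 3 lists falls from 64.3 to 8.36 per Mb.

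Most of the regions lay in genes whose start was open in every library. Of the 12963 regions in genes with a known start, 10801 (83.3%, 82.7 to 84.0%) were in genes where a region of all 3 lists overlapped a start window. The share was 81.9% (81.0 to 82.8%) for Halo-Sox2a only and 74.8% (73.5 to 76.1%) for the control only. Such genes made up 61.3% of the 17274 genes with a known start and 77.8% of their summed length. Per megabase, Halo-Sox2 only regions numbered 17.0 in genes with an open start and 11.9 in the others.

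The regions spread over 6750 host genes, of which 3531 held 1 each. At the other end, 193 genes held 10 or more, with 2790 regions among them (17.0%). The median distance from a region to the nearest other one was 20.4 kb, and 4925 (30.0%) had another within 10 kb. The nearest region of all 3 lists was a median of 16.3 kb away, against 12.2 kb for Halo-Sox2a only and 13.6 kb for the control only. Across the 15660 genes with any union region, the number of Halo-Sox2 only regions rose with gene length (Spearman's rho 0.622, across genes, which are not independent replicates). The density of these regions per megabase varied little with length, as given above.

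The 10 genes with the most regions were Csmd1, Nrxn3, Ptprt, Tenm3, Dab1, Nrg1, Fhit, Ntm, Adamtsl1 and Rbfox1, with 34 to 27 each. They were 914.5 to 1643 kb long. List counts below are in the order Halo-Sox2, Halo-Sox2a, control. Csmd1 (chr8:15892538-17535385), a gene of a large membrane protein that restrains complement, had list counts of 51, 26 and 23. Of its 68 union regions, 34 were Halo-Sox2 only (50.0%, 38.4 to 61.6%), 6 Halo-Sox2a only and 6 control only. The presynaptic adhesion gene Nrxn3 (chr12:88722701-90334935) had list counts of 57, 30 and 37, with 33 of Halo-Sox2 only, 1 of Halo-Sox2a only and 11 of the control only. Tenm3, which encodes a teneurin, an adhesion protein of neurons, had the most union regions of the 10, with 93, of which 25 were in all 3 lists and 32 of Halo-Sox2 only.

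Ptprt had the highest share of the 10, with 32 of 53 regions (60.4%, 46.9 to 72.4%), and list counts of 42, 18 and 11. Ntm, which encodes the adhesion protein neurotrimin, followed with 29 of 52 (55.8%) and 45, 20 and 12 regions. Rbfox1, a neuronal splicing regulator, had 27 of 51 (52.9%). Dab1, an adaptor of reelin signalling, had 31 of 64, the ErbB ligand gene Nrg1 30 of 61, the fragile-site gene Fhit 29 of 58 and the matrix protein gene Adamtsl1 27 of 55. The starts of Nrxn3, Ptprt, Dab1, Fhit and Ntm were open in all 3 lists, those of Tenm3 and Rbfox1 were not, and the other 3 genes had no window.

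Among the 1267 genes with at least 12 union regions, the median share of Halo-Sox2 only regions was 28.0% (quartiles 17.6 and 38.5%), 114 genes reached 50% or more and 22 had none. The highest shares were in Spats2l, with 10 of 12, and in Kcnma1, with 24 of 31 (77.4%, 60.2 to 88.6%). Kcnma1 (chr14:23292288-24005110) encodes the pore of the large-conductance calcium-activated potassium channel. Its list counts were 30, 5 and 6, and its start was open in all 3. Spats2l had 12, 2 and 2 regions in those lists. The potassium channel subunit gene Kcnab1 had 16 of 23 (69.6%), the sorting receptor gene Sorcs3 18 of 26 (69.2%), the transporter gene Slco3a1 11 of 15 (73.3%) and Zfand3 9 of 12 (75.0%). Nrg3, an ErbB ligand gene, and Med27, which encodes a Mediator subunit, had 9 of 13 each. The intervals of these small counts are wide: for Nrg3 it ran from 42.4 to 87.3%.

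**Figure D4:**
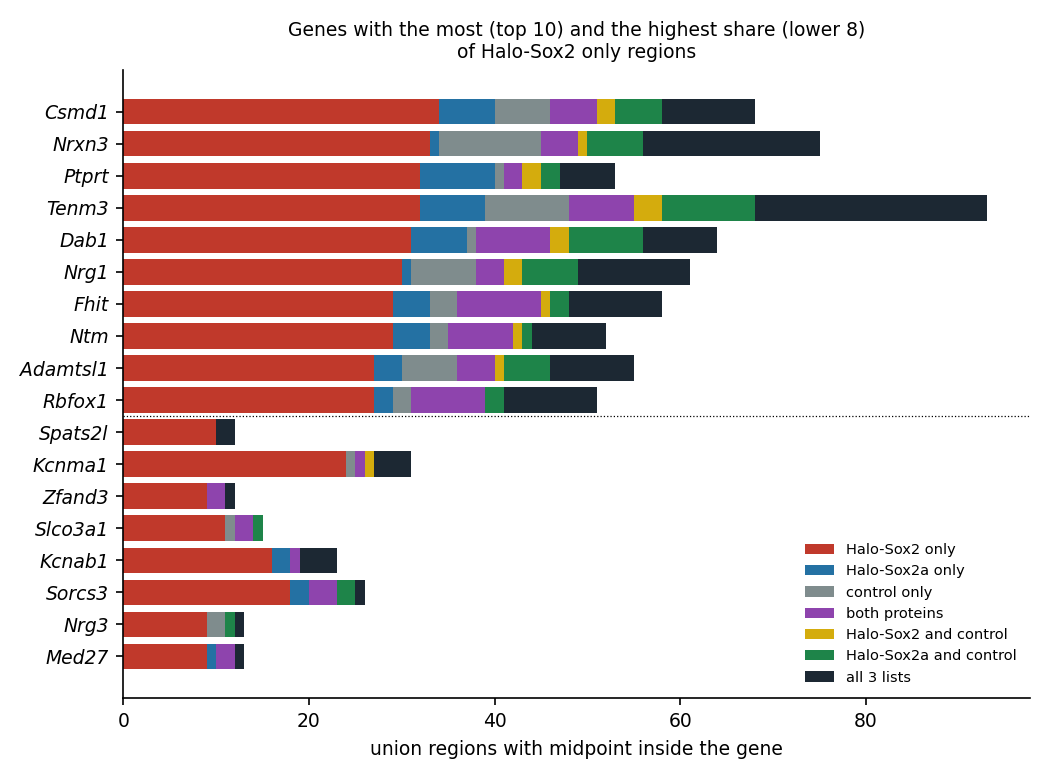
Number of union regions inside each gene (x axis) by class (colours), for the 10 genes with the most Halo-Sox2 only regions and, under the dotted line, the 8 with the highest share among genes with at least 12 regions. Csmd1 leads by number with 34 and Spats2l by share with 10 of 12.

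Gene lists, chosen by function but with earlier results of these data known, differed in share. Regions were counted here in every gene containing their midpoint, which gave 16725 placements of 70154 (23.8%, 23.5 to 24.2%) for all protein-coding genes. Genes of synaptic adhesion had 437 of 1226 (35.6%, 33.0 to 38.4%), in 40 of 47 genes. Glutamate and GABA receptor genes had 132 of 380 (34.7%, 30.1 to 39.7%), cadherin and catenin genes 150 of 443 (33.9%, 29.6 to 38.4%), and axon guidance genes 212 of 654 (32.4%, 28.9 to 36.1%). The list of neural transcription factors, which also holds the RNA-binding genes Rbfox1 and Rbfox3, had 186 of 614 (30.3%, 26.8 to 34.0%), and 159 of 548 (29.0%, 25.4 to 33.0%) without them. The intervals of these 5 lists lay above the value of all genes, but they treat regions of the same gene as independent. The median gene with a union region stood at 33.3, 32.5, 32.3, 30.8 and 19.5% in the same order, and at 0.0% over all genes. Control only regions were also above their value of all genes, 8.23%, in cadherins and catenins, at 15.1%, and in synaptic adhesion, at 11.9%. They made up 8.41% in axon guidance, 8.95% in glutamate and GABA receptors and 6.03% in neural factors. Halo-Sox2a only regions ranged from 8.56 to 11.8% in the 5 lists, against 12.1% over all genes. The genes of these lists are long, with medians of 739.9, 240.1, 208.9, 188.8 and 94.8 kb in the same order, and genes over 500 kb of any function had 36.1% and genes of 200 to 500 kb 30.9%. The part of length in the list shares was not tested.

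Within the lists the counts varied from gene to gene. In axon guidance, the Slit receptor genes Robo2 and Robo1 held 25 of 52 and 18 of 62, and Unc5d 16 of 39, while Dcc, the netrin receptor gene, held 13 of 27 and Slit3 15 of 42. The 5 guidance genes without one, Robo3, Unc5a, Plxnb1, Plxnd1 and Epha8, had 1 to 3 union regions each. Among adhesion genes, Tenm2 held 26 of 50 and Ptprd 19 of 51. Nrxn2 and Ptprf had 0 of 12 each, Lrfn5 0 of 11 and Ncam2 0 of 10. Adgrl1, Lrrtm1 and Nlgn3 also had none, with 1 to 5 union regions each. Cdh13, a cadherin anchored by a lipid, held 21 of 67 and Ctnna2, a neuronal alpha-catenin gene, 19 of 44. The GABA receptor subunit gene Gabrg3 held 16 of 26 (61.5%, 42.5 to 77.6%), with list counts of 20, 8 and 6, and the metabotropic receptor gene Grm7 held 15 of 36. In the neural list Rbfox1 and Zfhx3 led with 27 of 51 and 20 of 62, Rbfox3 had 0 of 15, and the SOX genes Sox5 and Sox6 held 12 of 55 and 13 of 32.

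Pluripotency genes had 24 of 142 regions (16.9%, 11.6 to 23.9%), an interval whose upper end reached the value of all genes, and 14 of 29 genes with a union region held at least 1. Beside these 24 there were 25 regions of Halo-Sox2a only and 9 of the control only, whereas over all genes Halo-Sox2 only regions outnumbered Halo-Sox2a only regions by 16725 to 8453. Nr5a2, a nuclear receptor gene, held 5 of 13, and Esrrb, a nuclear receptor of the naive state, 4 of 24 with 6 of Halo-Sox2a only. Lifr, the receptor gene for leukemia inhibitory factor, held 3 of 10, and Tet2 2 of 9. The 3 core factor genes Sox2, Pou5f1 and Nanog had a single union region each inside them, and none was Halo-Sox2 only. Of the 142 regions, 93 were in the 9 genes over 50 kb, where 16 (17.2%, 10.9 to 26.1%) were Halo-Sox2 only, against 28.2% (27.8 to 28.6%) over all genes of that length. In the genes up to 50 kb the count was 8 of 49 (16.3%, 8.51 to 29.0%), against 15.4% over all such genes.

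Chromatin regulator genes stood near the background, with 51 of 217 (23.5%, 18.4 to 29.6%), led by Arid1b with 10 of 40 and Chd7 with 6 of 18. Ep300, the histone acetyltransferase gene, had Halo-Sox2 only regions at all 4 of its places. Mesendoderm and primitive endoderm genes had 17 of 78 (21.8%, 14.1 to 32.2%) and trophoblast genes 13 of 70 (18.6%, 11.2 to 29.2%), both intervals covering the background. In the former, 12 of the 17 were in the adjacent collagen genes Col4a1 and Col4a2 on chromosome 8, and in the latter 5 of the 13 were in Fgfr2, a fibroblast growth factor receptor gene.

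**Figure D5:**
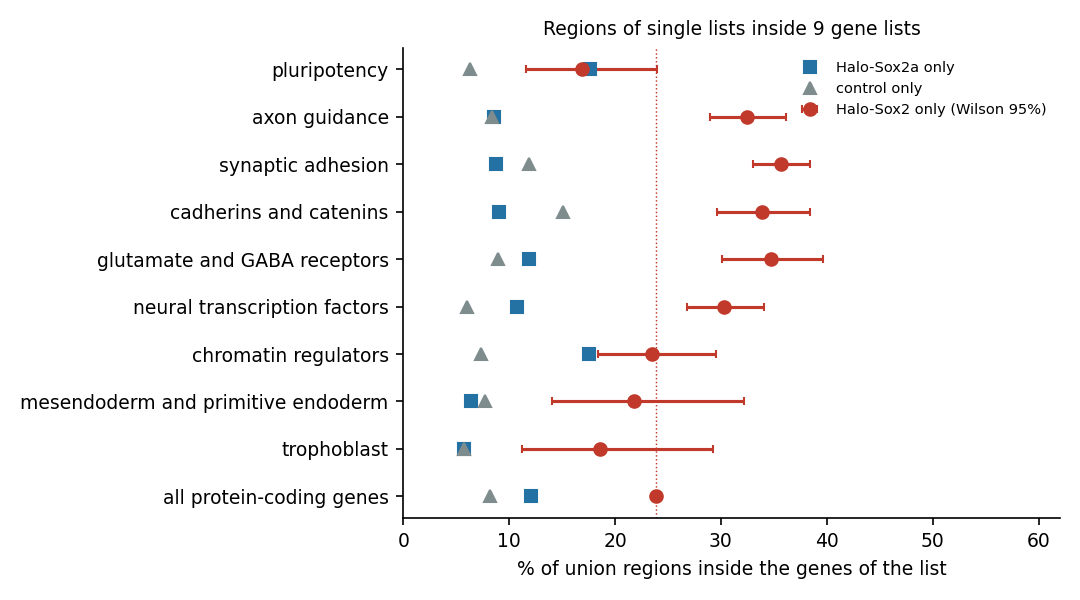
Share of the union regions inside the genes of each list (x axis, %) that were of Halo-Sox2 only (red, with Wilson 95% intervals), Halo-Sox2a only (blue) or the control only (grey); the dotted line is the Halo-Sox2 only share over all protein-coding genes, 23.8%. Synaptic, receptor, cadherin, axon guidance and neural factor lists lie to its right, between 30.3 and 35.6%.

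With regions within 1 kb of a gene's ends left out, the value of all genes rose to 27.6%, with 36.4% for synaptic adhesion, 36.6% for glutamate and GABA receptors and 18.9% (12.9 to 26.7%) for pluripotency. The pluripotency interval then lay below the value of all genes. In another setting only Halo-Sox2 peaks above percentile 75 were kept, while the other peak lists were left whole. Halo-Sox2a only regions then made up 24.3% of the regions inside genes. The Halo-Sox2 only shares were lower in every gene list, as cutting this peak list alone lowers them by design. They were then 3.98% over all genes, 9.03% for glutamate and GABA receptors, 8.98% for cadherins and catenins, 8.77% for synaptic adhesion, 7.50% for axon guidance and 6.30% for neural factors. They were 1.64% for pluripotency (2 of 122), 1.18% for chromatin regulators (2 of 170) and 0 of 57 for trophoblast genes.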

How the data were processed

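Chromatin accessibility was measured by ATAC-seq in 3 libraries, 1 per group, sequenced as 75-bp read pairs from about 50000 cells each, per the labels' protocols. The authors deposited a peak list per library, with a whole-number score per peak whose scale is not given in the sources used here. The submitters' processing notes name STAR, SAMtools, MACS2 3.0.0a7, MACS3, deepTools 3.3.0 and the build mm10, without roles. Whether read ends were shifted for Tn5 is not given in the sources used here. A peak just under the caller's threshold is counted as absent, and depth sets how many there are.

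Positions were made 1-based. Peaks were merged, classed and placed in genes of a RefSeq table of GRCm38.p6 (the assembly of mm10) in Python 3.11.15 with pandas 2.3.3, and the steps were tested on simulated peak lists. Motifs were searched on both strands of 300-base start windows. This replaced the planned search of the central part of each region, for which no sequence was at hand. Wilson 95% intervals (statsmodels 0.14.6) cover counting error only, and neighbouring regions are not independent.

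Named genes are the 10 with the most regions, the 8 with the highest share among genes with at least 12 union regions, and the 2 leading genes of each of 9 lists. Named regions are the 8 highest-scoring, of which 1 is not reported here. Other genes, the regions off chromosome 8, the windows holding ACAATG, GC classes, reversed letters, the split of a list at 50 kb of gene length and the neural list without RNA-binding genes were chosen after values were seen. The members and gene lists were chosen with earlier results of these data known. Alternatives covered overlap, proximity, score thresholds, list size, gene placement, autosomes, gene-end distance and window coverage.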

Additional observations from a re-analysis of the deposited data

How the results depend on the processing

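The number of regions was 16430. It stayed within 1.5 times of that when a peak of another list within 500 bp counted as present, with an overlap of 50% of the shorter peak, with lists of equal size, with whole regions inside the gene and on autosomes only. It fell to 6035 and 2202 with only Halo-Sox2 peaks above percentiles 50 and 75, as fewer Halo-Sox2 peaks entered and the other lists were kept whole. The share of regions inside genes, 24.1%, moved to 23.0% with proximity within 500 bp, 10.4% and 4.07% above percentiles 50 and 75, 21.2% with lists of equal size and 27.3% for whole regions inside the gene. The share within 1 kb of a gene end, 3.21%, moved to 1.73% above percentile 75, 2.51% with lists of equal size and 8.07% at 2.5 kb. The median host length, 133.3 kb, moved to 136.0 kb with proximity, 177.8 kb above percentile 75 and 140.1 kb with lists of equal size. The distance to regions of all 3 lists, 16.3 kb, moved to 52.0 kb and 19.4 kb in the last pair of settings, which leave fewer such regions.

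In the gene lists, the share over all genes moved from 23.8% to 22.8% with proximity, 20.9% with lists of equal size and 27.6% away from gene ends. Pluripotency, 16.9%, was 14.8% with proximity (21 of 142) and 12.1% with lists of equal size (15 of 124). Equal sizes gave 32.5% for synaptic adhesion, 26.4% for neural transcription factors and 13.4% for mesendoderm and primitive endoderm. Above percentile 75 the shares were 3.98% for all genes, 9.03% for glutamate and GABA receptors, 8.98% for cadherins and catenins, 8.77% for synaptic adhesion, 7.50% for axon guidance, 6.30% for neural factors, 4.55% for mesendoderm and primitive endoderm, 1.64% for pluripotency, 1.18% for chromatin regulators and 0% for trophoblast. Of the 33 named genes, all stayed within 1.5 times of their count with proximity, 26 did with lists of equal size and 0 did above percentile 75. The SOX core share, 50.9%, was 47.2% (40.0 to 54.5%) with 1 base of the window covered. With all 300 covered it was 43.5% (10 of 23, 25.6 to 63.2%), an interval that included the 28.3% of all windows, and both proteins gave 46.3% of 54 and the control only 40.0% of 15. The planned search of whole regions was not run, since it needs the genome sequence. No paired analysis was possible because each group had 1 library. Depth limits how far absence from a list can be read as closed chromatin.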

Other observations

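Among the Halo-Sox2 only regions inside genes, 6 of 16430 contained a whole microRNA hairpin of the RefSeq table, or 0.365 per 1000 regions. All 68097 union regions inside genes held 79 (1.16 per 1000), of which 60 were in the 24068 regions of all 3 lists (2.49 per 1000), and Halo-Sox2a only regions held 3 of 8324 (0.36 per 1000). A wider region has more room for a whole hairpin, and regions of all 3 lists had a median width of 890 bp, against 376.5 bp for Halo-Sox2 only. The part of width in these rates was not tested. The best known of the 6 hairpins are Mir103-1, within the pantothenate kinase gene Pank3 (chr11:35782105-35782512, score 232, percentile 64.9), and Mir148b, within Copz1 (chr15:103284817-103286063, score 87, percentile 30.3). Their mature 3p sequences are shown with the seed, bases 2 to 8, in capitals.
mmu-miR-103-3p: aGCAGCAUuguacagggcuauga
mmu-miR-148b-3p: uCAGUGCAucacagaacuuugu

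The other hairpins were Mir7002 in Aqr, Mir6403 in Man1c1, Mir7089 in Cdc25a and Mir8103 in Osbpl7.

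Halo-Sox2 only regions outside genes, 15337 in number, had a median width of 378 bp and a median percentile of 38.7, against 376.5 bp and 37.4 inside genes.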
